A study of Mus musculus with 4 samples.

Results

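The cytosolic ribosomal protein genes encode the proteins that, with ribosomal RNA, build the small (Rps) and large (Rpl) subunits of the cytosolic ribosome. The set held each gene that at least 1 probe set of the array names alone and whose symbol is Rpl or Rps plus a number, with a letter suffix allowed, or is Rplp0, Rplp1, Rplp2 or Rpsa, while Rps6k and similar kinase symbols were left out. This gave 46 of the 18193 genes that a probe set names alone, read by 100 probe sets, and each gene was followed on the probe set with the highest mean signal over the 4 arrays. The rule for members used no difference between samples, although it was chosen with earlier results of these data known. Of the 46 genes, 43 passed the filter on low signal and were tested among 12891 genes, 20 of them of the small and 23 of the large subunit. The annotation lists many other ribosomal protein genes only on probe sets shared by several genes, and those are described separately.

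The samples were mouse macrophages grown from bone marrow for 7 days with 20% medium conditioned by L cells, which supplies M-CSF, and then plated overnight without it. Every culture was primed with 100 U/ml interferon-gamma overnight, rinsed and then stimulated for 2 h. Only the labels of the LPS group state the length of that night, 16 h, so equal priming is taken from the word overnight. The LPS plus immune complexes group received lipopolysaccharide (LPS, a bacterial product that engages TLR4) at 10 ng/ml and immune complexes, which are antigen coated with antibody and engage Fc gamma receptors; the labels used here give no dose or antigen for the complexes. The LPS group received the same dose of LPS alone. There were 2 arrays per group, numbered 1 and 2 as replicates, and no array came from unprimed or unstimulated cells. The labels give no strain, age or sex and do not say that replicates were separate cultures or animals, so the p-values speak of the spread between these arrays only, and that spread may be technical. The series compares type II activation, by LPS with immune complexes, with classical activation by LPS.

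Ribosomal protein genes are transcribed at high levels in growing cells, and their messenger RNAs are among the most abundant of a cell. Most of these mRNAs begin with a C followed by a run of pyrimidines, the 5′ terminal oligopyrimidine (TOP) motif, through which mTOR signalling and the binding protein Larp1 set how many of them are translated. An array of transcript levels does not measure that translation.

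The beginnings of 8 members are printed because they carry this family hallmark at the annotated first base. Of the 46 members, 40 had a promoter in the RefSeq table of GRCm38.p6. In 8 of these 40 genes (20%) the first annotated base was C and at least 4 more pyrimidines followed, against 3.01% of all 27025 genes with a promoter in the table. Each line gives 10 bases before the annotated first base and 20 bases from it on, 5′ to 3′ along the gene, with the pyrimidine run that opens the transcript in capitals.
Rpl14 (chr9:120571507-120571536, plus strand): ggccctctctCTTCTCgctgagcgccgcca
Rpl35 (chr2:39005112-39005141, minus strand): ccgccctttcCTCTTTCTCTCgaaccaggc
Rpl38 (chr11:114668570-114668599, plus strand): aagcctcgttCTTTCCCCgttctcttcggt
Rplp2 (chr7:141447641-141447670, plus strand): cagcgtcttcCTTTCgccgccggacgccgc
Rps10 (chr17:27635225-27635254, minus strand): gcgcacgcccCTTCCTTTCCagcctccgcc
Rps18 (chr17:33955646-33955675, minus strand): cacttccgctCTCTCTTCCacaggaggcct
Rps27 (chr3:90213629-90213658, minus strand): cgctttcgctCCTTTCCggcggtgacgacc
Rps6 (chr4:86857348-86857377, minus strand): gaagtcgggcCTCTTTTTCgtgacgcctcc
The runs were 5 bases (Rplp2) to 11 bases (Rpl35) long. A C with at least 4 more pyrimidines began within 10 bases of the annotated first base in 26 of the 40 genes (65%), against 34.4% of all genes. The letters CCGGAAG, searched on both strands from 250 bases before to 50 bases after the start, were in 20 of 40 members (50%) and in 9.93% of all genes. The letters AAGATGGC were in 7.5% of members and 3.19% of all genes, and TATAAA in 12.5% and 15.7%. These are matches of letters in a window and not measured sites. Among tested members, the 8 with the run at the first base had a median log2 fold change of -0.19 and the 30 with a listed promoter but no such run had -0.21, so the medians of these groups lay close together.

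None of the 43 tested members passed limma's test at an adjusted p under 0.05, and each had an adjusted p of 1.0. Over all tested genes 0.0621% were called. Rpl41 alone had an unadjusted p under 0.05. Log2 fold changes, LPS plus immune complexes over LPS on the scale of log2(signal + 32), were below 0 for 37 of 43 members, with a median of -0.21 (0.866-fold), against a median of 0.05 over all tested genes. They ran between -0.66 (Rpl41) and 1.02 (Rps27), and their standard errors between 0.22 and 0.98. Both LPS plus immune complexes arrays lay below both LPS arrays for 17 members (39.5%), against 13.1% of all tested genes. Rps27 was the 1 member with both LPS plus immune complexes arrays above both LPS arrays, against 13.2% of all tested genes. In RNA from whole cultures, fewer cells of a type and less RNA per cell cannot be told apart.

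The median over members hides a split by brightness. For 33 members the probe set had a mean signal of at least 10000, and all 33 had a log2 fold change below 0, with a median of -0.23 (0.851-fold) and a range of -0.66 to -0.11. Of these, 17 (51.5%) had both LPS plus immune complexes arrays below both LPS arrays, against 33.6% of other probe sets this bright. In the other 16 the groups overlapped. The 3 members between 1000 and 10000 had a median of -0.09, and of the 7 members from the filter to 1000, 5 were above 0, and the median of the 7 was 0.23. The bounds of 1000 and 10000 were set after the signals had been seen, and a signal also depends on the probes, so brightness orders probe sets here and not transcript levels of different genes. The subunits were alike among bright members, with a median of -0.22 for 16 small subunit genes and -0.23 for 17 large subunit genes.

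**Figure D1:**
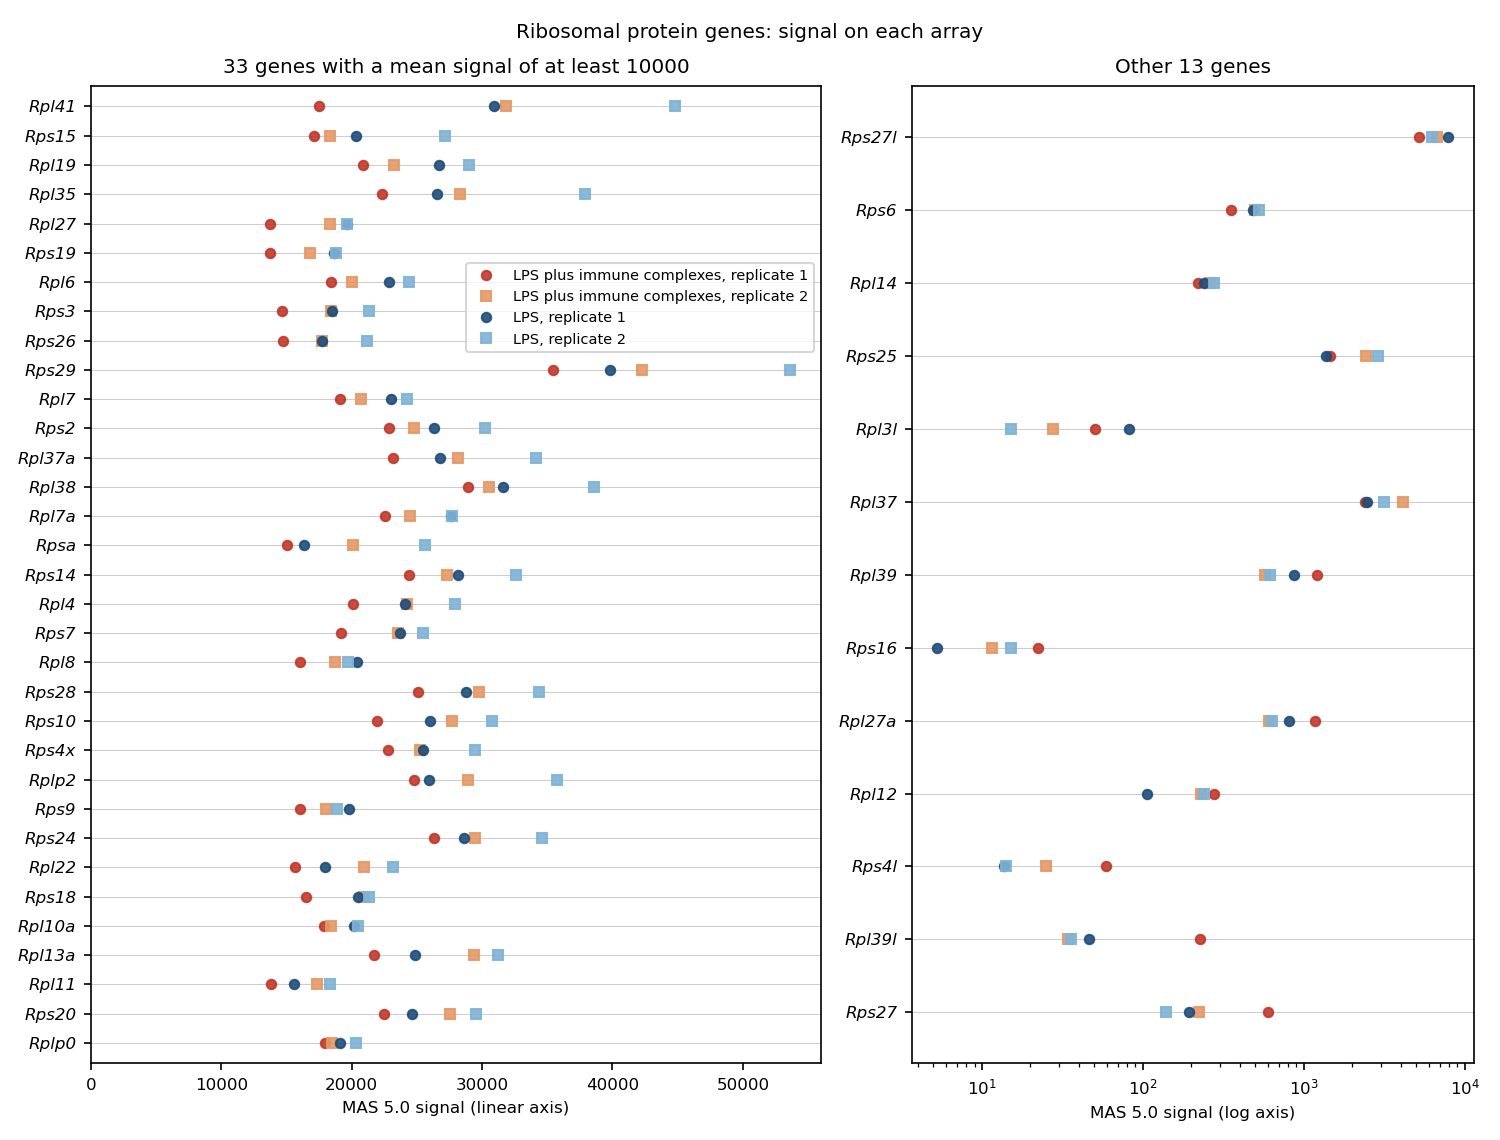
MAS 5.0 signal of each ribosomal protein gene on each of the 4 arrays, for 33 genes with a mean signal of at least 10000 (left, linear axis) and the other 13 (right, log axis), ordered by log2 fold change. In all 33 bright genes the first LPS plus immune complexes array was the lowest of the 4, and in 31 of them the second LPS array was the highest.

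**Figure D2:**
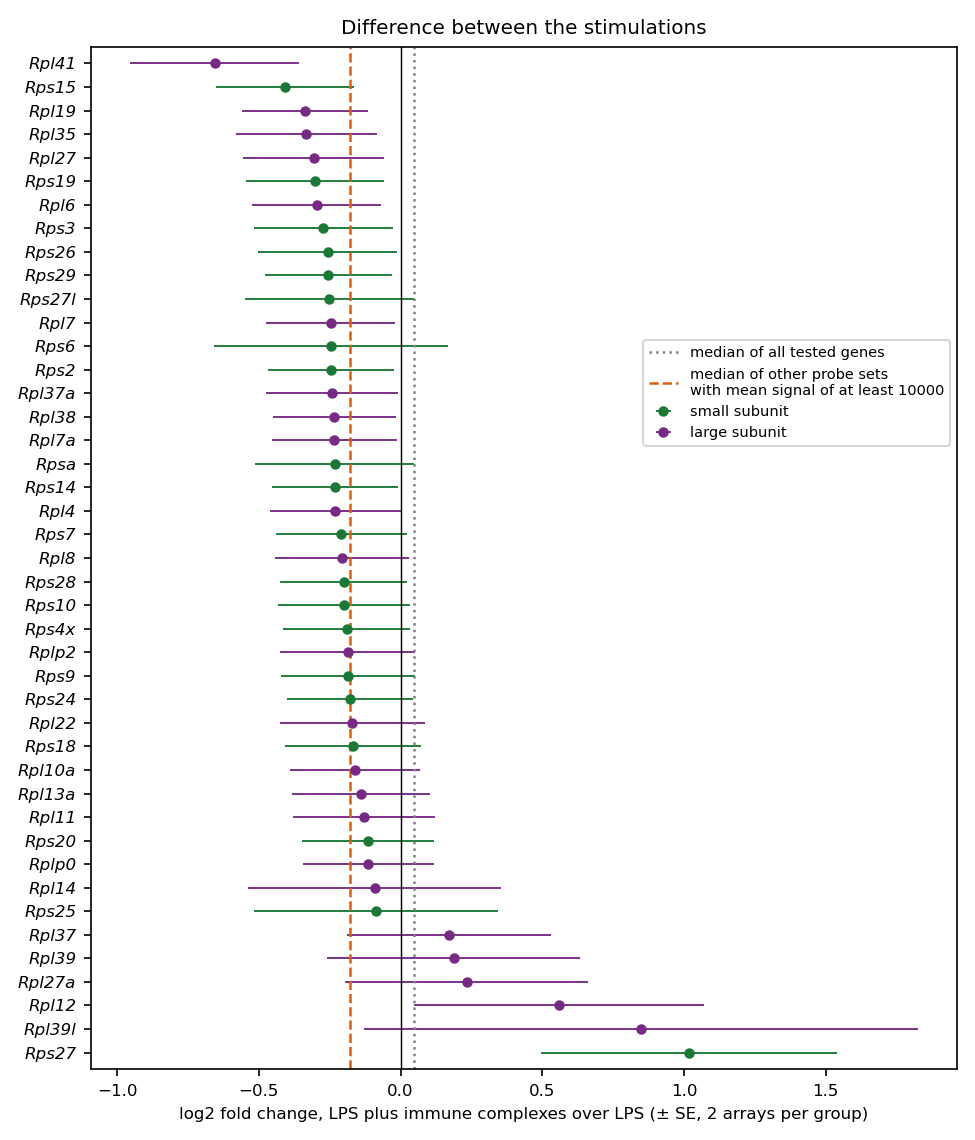
Log2 fold change (LPS plus immune complexes over LPS, limma) with its standard error for the 43 tested ribosomal protein genes, small and large subunit in different colours. Vertical lines mark the median of all tested genes (0.05) and of other probe sets with a mean signal of at least 10000 (-0.18).

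Rpl41, a very short and highly basic protein of the large subunit, had the lowest log2 fold change. Its signals on the 2 arrays of each group, replicate 1 before replicate 2 here and in all such sentences, were 17484 and 31866 with LPS plus immune complexes, against 30903 and 44824 with LPS. The second LPS plus immune complexes array lay just above the first LPS array, so the groups overlapped. The log2 fold change was -0.66 ± 0.30 (SE), limma adjusted p = 1.0. It was -0.22 without the first LPS plus immune complexes array, -1.09 without the second, -0.92 without the first LPS array and -0.39 without the second. The other bright Rpl41 probe set gave -0.26, and when probe sets marked _x_at or _s_at were left out because they may bind several transcripts, the gene was read on a dim probe set at 0.19.

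The other members at the low end were Rps15, of the small subunit, and Rpl19, Rpl35 and Rpl27, of the large subunit. Rps15 had signals of 17122 and 18303 with LPS plus immune complexes, against 20323 and 27127 with LPS, a log2 fold change of -0.41 ± 0.24 (SE). Rpl19, which forms a bridge between the subunits, had signals of 20879 and 23233 with LPS plus immune complexes, against 26699.7 and 28997 with LPS, a log2 fold change of -0.34 ± 0.22 (SE). In both genes the groups did not overlap, and the gap between them was smaller than the standard error. Rpl35, which lies near the exit of the tunnel for the new protein, had signals of 22362 and 28338 with LPS plus immune complexes, against 26561 and 37904 with LPS, a log2 fold change of -0.33 ± 0.25 (SE). Rpl27 had signals of 13731 and 18356 with LPS plus immune complexes, against 19628 and 19672 with LPS, a log2 fold change of -0.31 ± 0.25 (SE). The Rpl35 groups overlapped, while the Rpl27 LPS arrays were nearly equal and lay above both others. All 4 genes had a limma adjusted p of 1.0.

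The small subunit members named for their roles and read on bright probe sets had log2 fold changes of -0.30 to -0.19. Rps19, whose human counterpart is often mutated in Diamond-Blackfan anaemia, had signals of 13720.1 and 16779.7 with LPS plus immune complexes, against 18645 and 18760.2 with LPS, a log2 fold change of -0.30 ± 0.24 (SE). Rps3, at the mRNA entry channel, had signals of 14662 and 18437 with LPS plus immune complexes, against 18496 and 21349 with LPS, a log2 fold change of -0.27 ± 0.25 (SE). Neither gene's groups overlapped, although in Rps3 the second LPS plus immune complexes array and the first LPS array were almost equal. Its 2 dimmer probe sets read otherwise, 1 of them at 0.99, and the mean over its probe sets was 0.29 on the log2 scale. Rpsa, also known as the laminin receptor precursor, had signals of 15052 and 20107 with LPS plus immune complexes, against 16331 and 25593 with LPS, a log2 fold change of -0.23 ± 0.28 (SE). Rps4x, on the X chromosome, had signals of 22783 and 25279 with LPS plus immune complexes, against 25456 and 29462 with LPS, a log2 fold change of -0.19 ± 0.22 (SE). The Rpsa groups overlapped, with each second replicate far above its first, and the Rps4x groups were separate by a narrow margin.

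The large subunit members named for their roles, outside the stalk, lay between -0.17 and -0.13. Rpl13a, which in human monocytic cells given interferon-gamma leaves the ribosome to join a complex that silences translation of inflammatory mRNAs, had signals of 21725 and 29348 with LPS plus immune complexes, against 24820.1 and 31216 with LPS, a log2 fold change of -0.14 ± 0.24 (SE). Rpl11, which binds and holds back Mdm2 when ribosome assembly fails, had signals of 13834 and 17320.1 with LPS plus immune complexes, against 15586 and 18372 with LPS, a log2 fold change of -0.13 ± 0.25 (SE). Rpl22, needed for alpha-beta T cell development in mice, had signals of 15680.2 and 20941 with LPS plus immune complexes, against 17946 and 23159.8 with LPS, a log2 fold change of -0.17 ± 0.26 (SE). In all 3 genes the groups overlapped, and the second array of each group was well above the first. Without the first LPS plus immune complexes array their log2 fold changes were 0.076, 0.033 and 0.039, and with quantile normalization 0.098, 0.030 and -0.01.

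The stalk proteins of the large subunit, which recruit translation factors, were Rplp0 and Rplp2. Rplp0 had signals of 17952 and 18466 with LPS plus immune complexes, against 19135 and 20299.6 with LPS, a log2 fold change of -0.11 ± 0.23 (SE). Rplp2 had signals of 24755 and 28938 with LPS plus immune complexes, against 25941 and 35768 with LPS, a log2 fold change of -0.19 ± 0.24 (SE). Rplp0 was close to level on all 4 arrays although its groups did not overlap, and the Rplp2 groups overlapped. With quantile normalization they were at 0.058 and 0.059. The other 19 bright members lay between -0.30 (Rpl6) and -0.12 (Rps20). In 10 of them both LPS plus immune complexes arrays lay below both LPS arrays. That held for 13.1% of all tested genes and 33.6% of other probe sets with a mean signal of at least 10000.

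Replicates differed about as much as the stimulations did. Over the 33 bright members the second LPS plus immune complexes array stood above the first by a median of 0.25 on the log2 scale, in all 33 genes. The second LPS array stood above the first by 0.21, in 31 of 33. Between the stimulations, the first LPS plus immune complexes array minus the first LPS array gave -0.24, and minus the second LPS array -0.45. The second LPS plus immune complexes array minus the second LPS array gave -0.21, with all 33 genes below 0 in these 3 pairs. The fourth pair, the second LPS plus immune complexes array minus the first LPS array, gave -0.00, with 17 genes below 0 and 16 above. The sign of the group difference therefore came from 3 of the 4 array pairs, and the lowest and highest arrays belonged to different groups. The 667 other probe sets this bright moved the same way. Between replicates their medians were 0.20 with LPS plus immune complexes and 0.12 with LPS. The first LPS plus immune complexes array gave -0.22 against the first LPS array and -0.33 against the second. The second LPS plus immune complexes array gave -0.14 against the second LPS array.

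**Figure D3:**
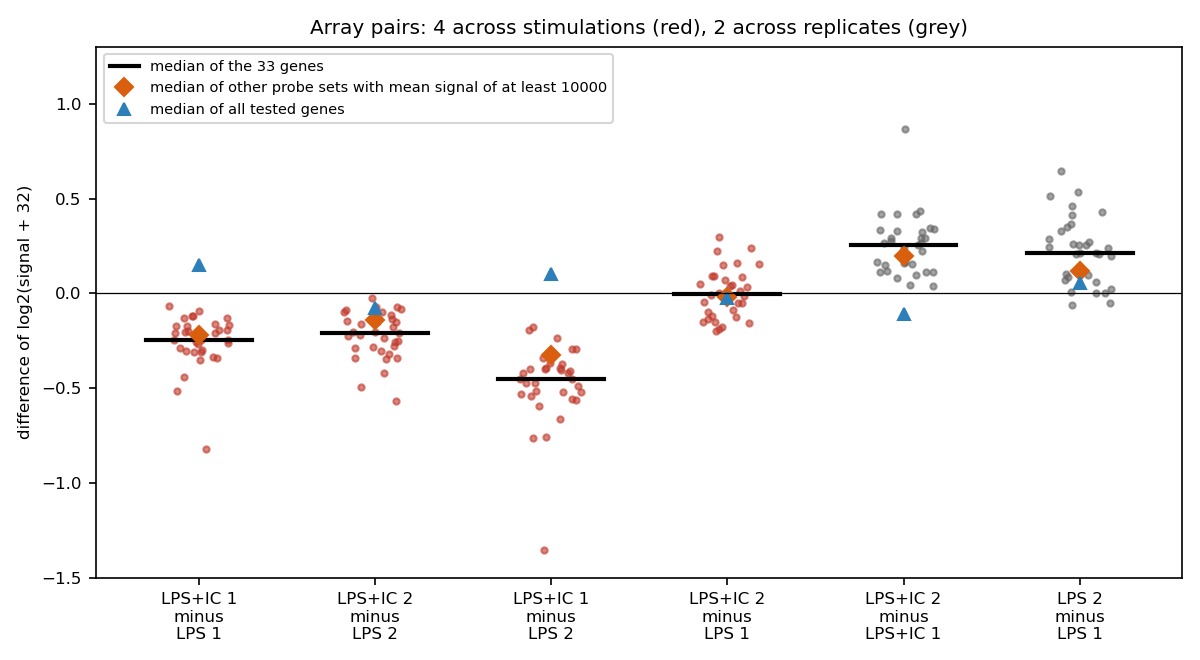
Difference of log2(signal + 32) between each pair of arrays for the 33 ribosomal protein genes with a mean signal of at least 10000 (points, with a bar at their median), 4 pairs across stimulations in red and 2 replicate pairs in grey. Diamonds show the median of 667 other probe sets at that signal and triangles that of all tested genes. The bars lie on the same side of 0 as the diamonds and in most pairs further from it. The replicate pairs are as far from 0 as most pairs across stimulations.

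Without the first LPS plus immune complexes array the median of the 43 members was -0.10 and 28 of the 33 bright members were below 0. It was -0.32 without the second LPS plus immune complexes array, -0.31 without the first LPS array and -0.08 without the second LPS array. The summed signal of the 46 members was 676378 and 805786 with LPS plus immune complexes, against 801585 and 946876 with LPS. That was 1.91% and 2.15% of all signal with LPS plus immune complexes, against 2.13% and 2.41% with LPS. The second LPS plus immune complexes array and the first LPS array were thus nearly level in both measures.

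Other bright probe sets lay in the same direction. The 667 probe sets of other genes with a mean signal of at least 10000 had a median log2 fold change of -0.18, with 81.1% below 0, and 33.6% had both LPS plus immune complexes arrays below both LPS arrays. The 5526 other probe sets between 1000 and 10000 had a median of -0.11, and the 20638 from the filter to 1000 had 0.16. The median of the bright members minus that of the other bright probe sets was -0.05. Each array had been scaled to a mean of 500 over its middle signals, a mean that leaves out the brightest 2% of probe sets, and 33 members lay among that 2% on every array. The arrays differed at the dim end too, with median signals of 155.8 and 68.4 with LPS plus immune complexes, against 88.6 and 79.8 with LPS.

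After quantile normalization, which gives all arrays the same distribution of signals, the median of the 43 members was -0.02, with 27 below 0. The 33 bright members had a median of -0.02, with 23 below 0, and the other bright probe sets -0.00. Members with both LPS plus immune complexes arrays below both LPS arrays then numbered 6 of 43, against 14.9% of all tested genes, and those above 5 of 43, against 13.1%. Rpl41 was still the lowest bright member, at -0.40. Probe sets naming a ribosomal protein gene, alone (59) or among several (71), stood beside 667 others with a mean signal of at least 10000. Quantile normalization makes the top of every array equal, so it would also shrink a shared change of these probe sets. The medians after it therefore cannot tell a change of this family from a difference in scaling. What the arrays' distributions contribute to the group difference was not tested beyond this change of scaling.

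**Figure D4:**
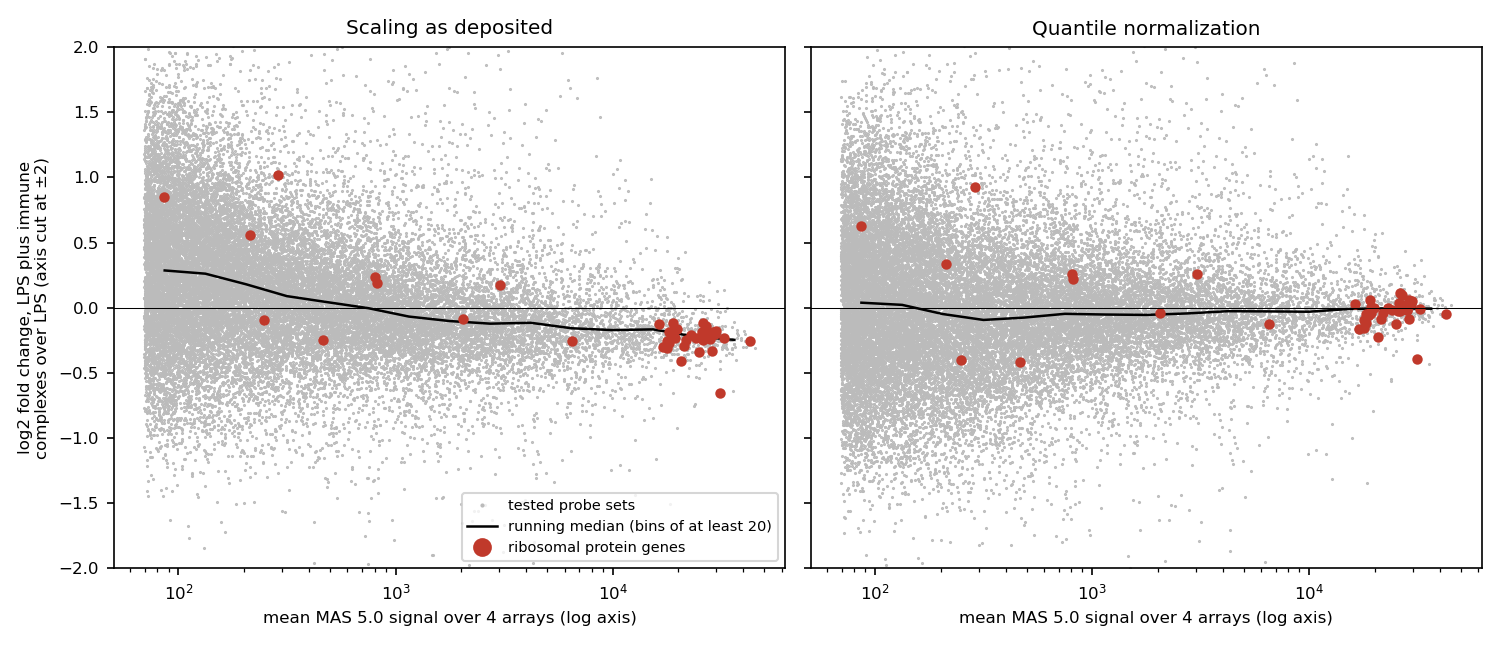
Log2 fold change (LPS plus immune complexes over LPS) against mean signal (log axis) for all tested probe sets in grey, with a running median in black and the 43 ribosomal protein genes in red, as deposited (left) and after quantile normalization (right). The running median includes the ribosomal probe sets. As deposited it sinks below 0 at high signal, and the bright ribosomal protein genes lie near it. Their median was -0.23, against -0.18 for other probe sets with a mean signal of at least 10000. After quantile normalization both the running median and these genes lie near 0.

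The dimmer members differed among themselves. Rps27, a zinc-finger protein of the small subunit, had signals of 595.9 and 222.1 with LPS plus immune complexes, against 194.4 and 140.0 with LPS, a log2 fold change of 1.02 ± 0.52 (SE). The groups did not overlap, but the first LPS plus immune complexes array was far above the other 3, and without it the log2 fold change was 0.36. Its paralog Rps27l, a target of p53, had signals of 5174 and 6718 with LPS plus immune complexes, against 7874 and 6274 with LPS, a log2 fold change of -0.25 ± 0.30 (SE). The Rps27l groups overlapped. Rpl12, at the base of the stalk, had signals of 277.7 and 229.6 with LPS plus immune complexes, against 106.0 and 238.6 with LPS, a log2 fold change of 0.56 ± 0.51 (SE), in which the first LPS array was the low one and the other 3 lay close together.

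Rpl39, which lines the exit tunnel, had signals of 1213 and 576.4 with LPS plus immune complexes, against 864.1 and 620.2 with LPS, a log2 fold change of 0.19 ± 0.45 (SE). Its paralog Rpl39l, best known from testis, had signals of 227.2 and 34.5 with LPS plus immune complexes, against 46.3 and 35.9 with LPS, a log2 fold change of 0.85 ± 0.98 (SE). Rpl27a, of the large subunit, had signals of 1175 and 609.9 with LPS plus immune complexes, against 809.1 and 634.9 with LPS, a log2 fold change of 0.23 ± 0.43 (SE). In all 3 genes the first LPS plus immune complexes array was the highest and the second the lowest, so the groups overlapped. Without that first array their log2 fold changes were -0.33 for Rpl39, -0.13 for Rpl39l and -0.22 for Rpl27a.

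Rps6, the substrate of the S6 kinases, was read on a dim probe set with signals of 352.2 and 497.0 with LPS plus immune complexes, against 483.5 and 523.2 with LPS, a log2 fold change of -0.25 ± 0.41 (SE). The first LPS plus immune complexes array was the low one of the 4, and the groups overlapped. Rps25, needed for initiation at some viral internal ribosome entry sites, had signals of 1449 and 2439 with LPS plus immune complexes, against 1377 and 2901 with LPS, a log2 fold change of -0.09 ± 0.43 (SE). It split by replicate number, with both second arrays above both first arrays.

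The 3 members below the filter were not tested. Rpl3l, a paralog of Rpl3 known from striated muscle, had signals of 50.6 and 27.5 with LPS plus immune complexes, against 81.7 and 15.1 with LPS. Rps16, of the small subunit, had signals of 22.2 and 11.6 with LPS plus immune complexes, against 5.3 and 15.1 with LPS. Rps4l had signals of 58.8 and 25.2 with LPS plus immune complexes, against 13.8 and 14.2 with LPS. Signals this low are near the bottom of the arrays' range, whose 5th percentile was 28.1 and 3.3 with LPS plus immune complexes, against 7.9 and 4.2 with LPS. The order of the arrays in these 3 genes is given as a reading only.

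For 11 members the array also holds a brighter probe set that names the gene together with 1 or more others, so the reading cannot be given to 1 gene. On these probe sets all 11 log2 fold changes were below 0, with a median of -0.26 and a range of -0.36 to -0.15. The probe set that Rps27 shares with Rps27rt had signals of 18279 and 20000.3 with LPS plus immune complexes, against 21369.5 and 27962 with LPS, a log2 fold change of -0.35 ± 0.24 (SE), opposite in sign to the dim probe set of Rps27 alone. The one shared by Rpl39 had signals of 30902 and 26801 with LPS plus immune complexes, against 31666 and 43286 with LPS, a log2 fold change of -0.36 ± 0.23 (SE). In both the groups did not overlap, and the second LPS array was the highest.

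Rps16, below the filter on its own probe set, had a shared probe set with signals of 26813 and 29885 with LPS plus immune complexes, against 30518 and 37553 with LPS, a log2 fold change of -0.26 ± 0.22 (SE). The one shared by Rps6 had signals of 26472 and 30185 with LPS plus immune complexes, against 29621 and 41699 with LPS, a log2 fold change of -0.31 ± 0.24 (SE). The Rps16 groups were separate and those of Rps6 overlapped, and both again had the second LPS array as the highest. Rpl37, Rpl12 and Rpl27a, above 0 on their own probe sets, had -0.15, -0.26 and -0.16 on the shared ones. All of these had a limma adjusted p of 1.0.

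**Figure D5:**
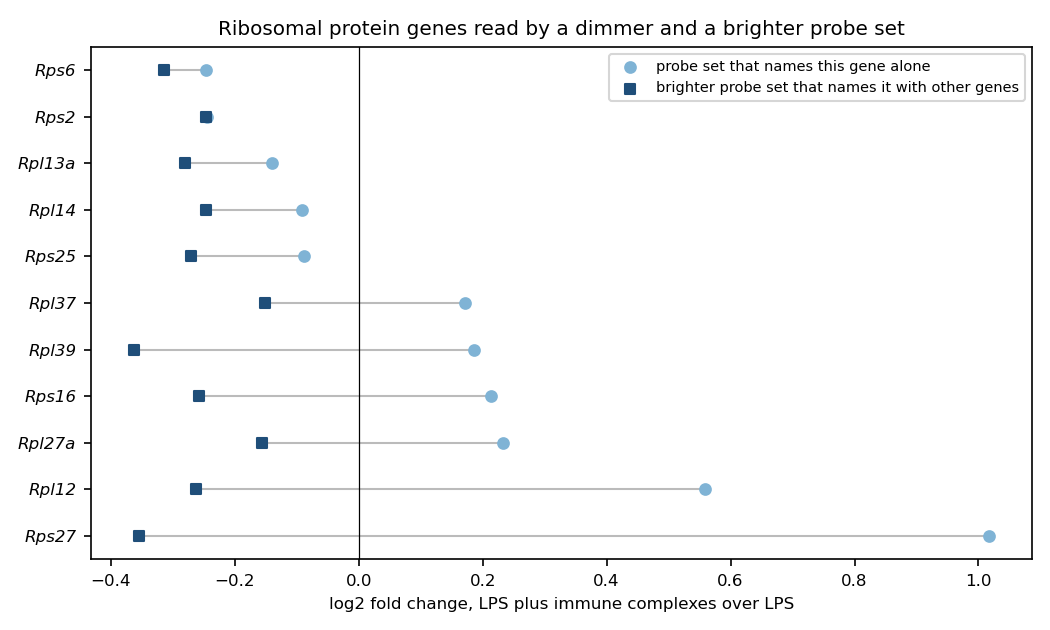
Log2 fold change (LPS plus immune complexes over LPS) for the 11 ribosomal protein genes with a brighter shared probe set, on the probe set that names the gene alone (circles) and on the brighter one that names several genes (squares). All squares lie between -0.36 and -0.15, while 6 of the circles lie above 0; Rps16's circle is below the filter and was not tested.

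Counts over all probe sets split by brightness in the same way. Of all member probe sets with a mean signal of at least 10000, 59 of 59 were below 0 with a median of -0.23, and of the 21 from the filter to 1000, 8 were. Of probe sets naming a ribosomal protein gene among several, 71 of 71 at 10000 or more were below 0, with a median of -0.25, and 4 of 16 from the filter to 1000 were. With shared probe sets admitted, 71 ribosomal protein genes were tested, 70 had a log2 fold change below 0 with a median of -0.24, and none passed limma's test; 1, Rpl41, had an unadjusted p under 0.05. The 27 of them that are not members, such as Rplp1, Rpl3 and Rpl5, were all bright and all below 0, between -0.38 and -0.02.

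Other genes of the pathway were followed as lists, and the genes named from them were chosen after their values had been seen. Of 25 tested TOP mRNAs of genes with other symbols, 18 were below 0, with a median of -0.18, and none passed limma's test in either direction or had an unadjusted p under 0.05. Tpt1, translationally controlled tumour protein and a classical TOP mRNA, had signals of 36225 and 36680.1 with LPS plus immune complexes, against 38708 and 52025 with LPS, a log2 fold change of -0.30 ± 0.22 (SE). Npm1, a nucleolar chaperone also encoded by a TOP mRNA, had signals of 9753 and 10355 with LPS plus immune complexes, against 8779.6 and 7807 with LPS, a log2 fold change of 0.28 ± 0.27 (SE). The groups were apart in both genes, in opposite directions. Fau, on the same list, does encode a small subunit protein, fused to a ubiquitin-like one, and had a log2 fold change of -0.28 ± 0.22 (SE).

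The ribosome biogenesis genes and the regulators of ribosomal protein mRNA translation held no gene with a mean signal of at least 10000. Other probe sets from the filter to 1000 had a median of 0.16, with 37.0% below 0. Those from 1000 to 10000 had -0.11, with 65.0% below 0. Of 61 tested ribosome biogenesis genes, 17 were below 0, with a median of 0.13. None passed, the lowest limma adjusted p being 0.589, while 2 had an unadjusted p under 0.05, both above 0. These were Noc3l, a ribosome assembly factor, at a log2 fold change of 0.89 ± 0.41 (SE), and Gnl3, which had the lowest adjusted p. Gnl3, nucleostemin, is a nucleolar GTP-binding protein and had signals of 2684 and 2327 with LPS plus immune complexes, against 971.2 and 1068 with LPS, a log2 fold change of 1.27 ± 0.35 (SE). Both LPS plus immune complexes arrays were well above both LPS arrays for this gene. Of 22 tested regulators of ribosomal protein mRNA translation, 6 were below 0, with a median of 0.22, and none passed limma's test. Only 1, Eif4e, had an unadjusted p under 0.05. Its signals were 11690 and 10497 with LPS plus immune complexes, against 8091 and 4994 with LPS. Its log2 fold change was 0.80 ± 0.30 (SE), and its groups did not overlap. Larp1, the TOP mRNA binding protein, had signals of 2857 and 3863 with LPS plus immune complexes, against 4109 and 4158 with LPS, a log2 fold change of -0.31 ± 0.32 (SE), and its groups did not overlap. Myc, a transcription factor that drives ribosome production, had signals of 505.6 and 877.5 with LPS plus immune complexes, against 188.8 and 510.6 with LPS, a log2 fold change of 1.01 ± 0.51 (SE), and its groups overlapped.

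Of 76 mitochondrial ribosomal protein genes, whose products build the separate ribosome of mitochondria, 59 were below 0, with a median of -0.16, and none passed limma's test or had an unadjusted p under 0.05. Their median with quantile normalization was -0.14, against -0.01 for the listed TOP mRNAs, 0.08 for ribosome biogenesis and 0.18 for the regulators. With that scaling all tested genes had a median of -0.024. Other probe sets had -0.045 from 1000 to 10000 and -0.025 from the filter to 1000. The lists differ in brightness, and differences between them were not tested. Of 9 tested reference genes 8 were below 0, none with an unadjusted p under 0.05, with a median of -0.16, and -0.02 with quantile normalization. Actb, cytoplasmic actin, had signals of 32213 and 33319 with LPS plus immune complexes, against 36335 and 44676 with LPS, a log2 fold change of -0.30 ± 0.21 (SE), and thus lay within the range of the bright ribosomal protein genes.

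The arrays read the labelled cell type. All 8 macrophage markers passed the filter, and their summed signal was 133083 and 150410 with LPS plus immune complexes, against 152219 and 186681 with LPS, with 6 of 8 log2 fold changes below 0 and a median of -0.23. Mertk, a phagocytic receptor, was the 1 of them with an unadjusted p under 0.05, at -1.03 ± 0.46 (SE) with overlapping groups. Summed signals of T cell, B cell, neutrophil, stromal, erythroid, dendritic and mast cell markers lay between 78.4 and 1434.9 per array. The T cell sum was 791.9 and 241.7 with LPS plus immune complexes, against 133.6 and 223 with LPS, with 2 of 6 markers past the filter and none read at 0. The neutrophil sum was 1223.4 and 1434.9 with LPS plus immune complexes, against 794.9 and 785.2 with LPS, apart between the groups, with 3 of 5 markers past the filter. Most of it was S100a8, which had a log2 fold change of 0.89 ± 0.39 (SE) and an unadjusted p under 0.05. The other 2 tested markers of that list, Mpo and Camp, were below 0, at -0.35 and -0.37. The median of the 3 was -0.35. The sum also held markers below the filter. Of these, Elane had 127.7 and 85.2 with LPS plus immune complexes, against 16.3 and 19.9 with LPS, so its groups were apart. The S100a9 groups overlapped. Neither Mertk nor S100a8 passed limma's test. The first LPS plus immune complexes array had the highest sum in 6 of these 7 lists, and the part of other cells in the ribosomal protein signals was not tested.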

How the data were processed

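Biotin-labelled total RNA of 4 macrophage samples was read on mouse Affymetrix arrays, per the labels' protocols. The values are linear intensities deposited by the authors, 1 for each probe set on each array, computed with MAS 5.0, per the submitters' processing notes. The deposited signals have a mean of 500 on each array when the lowest and highest 2% are left out, and that scaling was kept. No detection calls were used. No 2 arrays shared more than 74 identical values.

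Groups and replicate numbers came from the sample titles. Signals were analysed as log2(signal + 32), which understates changes of dim probe sets. The 64 controls and probe sets with a mean signal under the 40th percentile (69.6) were left out, so 27022 of 45037 probe sets were tested. The comparison of LPS plus immune complexes with LPS used limma 3.58.1 in R 4.3.3, by lmFit and eBayes with a variance trend, two-sided, with Benjamini-Hochberg adjustment over all 27022 probe sets and a threshold of 0.05. Every adjusted p is from this fit unless a replicate block is named, and members and lists are described by counts and medians with no test of their own. The script was tested on simulated data.

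GEO's annotation of the array names 1 gene for 34945 probe sets, several for 932 and none for 9160; it names no genome build. Promoter sequences and their coordinates are RefSeq's, on GRCm38.p6, matched by symbol for 40 of 46 members. No protein sequence was used.

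The members, lists and rules were chosen with earlier results of these data known. The genes named with values were the 5 highest and 5 lowest log2 fold changes, 14 symbols listed by role (of which 4, Rplp1, Rpl5, Rps27a and Rpl3, were not members), symbols with an l after the number and their namesakes, the 4 members with the largest replicate differences, and those below the filter, 25 genes in all. Alternatives were quantile normalization, median centring, pseudocounts of 1 and 100, no filter, the 60th percentile as filter, no variance trend, a replicate block, each array left out, an adjusted p under 0.1, an average of each gene's probe sets, and no probe sets ending in _x_at or _s_at. Shared probe sets, and quantile normalization with the block, were chosen after seeing the data. A group reduced to 1 array was taken to vary as the other group did.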

Additional observations from a re-analysis of the deposited data

How the results depend on the processing

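With 2 arrays a group, precision is limited, and dim signals are the least certain. Without a block, no ribosomal protein gene passed limma's test under any alternative run. The count of all probe sets called, 14 of 27022, was 0 with quantile normalization or no variance trend, 47 with median centring, 23 and 6 with pseudocounts of 1 and 100, 89 without a filter, 4 with the 60th percentile filter, 37 at an adjusted p under 0.1, and 0 to 109 with an array left out. Replicate deviations correlated at r = 0.38 across the 27022 probe sets (probe sets are not independent); there are only 2 pairs, and the labels do not say what a number shares. With the replicate block 671 probe sets were called (903 with quantile normalization), and 1 member, Rpl41, at -0.66 (limma adjusted p = 0.000163). With quantile normalization and the block it was called at -0.40 (limma adjusted p = 0.000262). With the block on the deposited scale, limma took each probe set's variance wholly from the trend over all probe sets. The 0.000163 therefore does not measure the spread of Rpl41 itself. With that block, 1.3% of all genes were called lower. The members' median of -0.21 was -0.016 with quantile normalization (with or without the block) and -0.40 with median centring, where the median of all genes was -0.024 and -0.15 against 0.046; it ran from -0.32 to -0.085 with an array left out. The genes with both LPS plus immune complexes arrays lower were 17 of 43, against 13.1% of all tested genes. With quantile normalization they were 6 of 43, against 14.9%. Once shared probe sets were admitted they were 33 of the 71 tested ribosomal protein genes, 69 of them with a mean signal of at least 10000. Of other probe sets at that signal, 33.6% were lower in this way. The members' median difference of replicate 2 minus 1 was 0.65 with median centring in LPS plus immune complexes (0.25 as deposited) and 0.033 with quantile normalization in LPS (0.21 as deposited).

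Signs turned for named genes as follows. With quantile normalization, with or without the block, Rpl11 was 0.030, Rpl13a 0.098, Rplp0 0.058, Rplp2 0.059 and Rps4x 0.035. With the mean over probe sets Rps3 was 0.29, Rps6 0.10 and Rpsa 0.079. Rpl39 was -0.010 with median centring, and Rpl41 was 0.19 without _x_at and _s_at probe sets. With an array left out, Rpl11 ran from -0.29 to 0.033, Rpl13a from -0.36 to 0.076, Rpl22 from -0.38 to 0.039, Rpl27a from -0.22 to 0.69, Rpl39 from -0.33 to 0.70, Rpl39l from -0.13 to 1.83, Rplp2 from -0.42 to 0.045, Rps25 from -0.62 to 0.44 and Rpsa from -0.56 to 0.091. The cause of these changes was not tested.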

Other observations

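Another 3 genes with ribosomal protein names lie outside the symbol rule. Rps3a1, of the small subunit, had signals of 21916 and 23909.9 with LPS plus immune complexes, against 25182 and 25066 with LPS, a log2 fold change of -0.13 ± 0.22 (SE). Rpl22l1, the paralog of Rpl22, had signals of 9157 and 8651 with LPS plus immune complexes, against 10989 and 9989.9 with LPS, a log2 fold change of -0.23 ± 0.26. Rpl7l1, a nucleolar relative of Rpl7, had signals of 1446 and 1791 with LPS plus immune complexes, against 1843 and 1854 with LPS, a log2 fold change of -0.20 ± 0.35. In each both LPS plus immune complexes arrays lay below both LPS arrays, as for 13.1% of all tested genes, and each had a limma adjusted p of 1.0. Among other probe sets, that order held for 33.6% with a mean signal of at least 10000 and for 19.6% from 1000 to 10000.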
